A study of Mus musculus with 65 samples.

Results

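The Iroquois genes Irx1, Irx2, Irx3 and Irx5 were followed through the differentiation of mouse embryonic stem cells into ventral neural progenitors. The members were fixed by name, and they are 4 of the 25239 genes in the deposited table. All 4 had a mean of at least 10 normalised reads and were tested with the 13964 genes that passed this filter. The other family members in the table, Irx4 and Irx6, had means of 7.92 and 3.05 normalised reads and were not tested.

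Iroquois genes encode homeodomain transcription factors of the TALE class, whose homeodomain carries an extra loop of residues. In the developing spinal cord Sonic hedgehog (Shh) from the notochord and floor plate patterns progenitors along the dorsal-ventral axis, and Irx3 is known as one of the factors that are kept out of the most ventral domains. IRX3 and OLIG2 repress each other at the boundary between the p2 domain, which gives rise to V2 interneurons, and the pMN domain, which gives rise to motor neurons. In mammals the family lies in 2 clusters of genes.

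RNA was sequenced from 65 libraries in 25 groups, all from the HM1 embryonic stem cell line, so that no second line was compared. Cells reached the neuromesodermal progenitor (NMP) stage on day 3, and those libraries (n = 3) had received no Smoothened agonist (SAG), a small molecule that activates the Shh pathway. From day 3 the other cells received 100 nM retinoic acid with 0, 10, 100 or 500 nM SAG, and they were collected on day 4 (n = 16), day 5 (n = 24) and day 6 (n = 22). They were fixed, stained for intracellular proteins and sorted among SOX2+ cells by NKX2.2, OLIG2, NKX6.1 and PAX6. Cells called p3 (n = 15, from 100 and 500 nM SAG) were positive for NKX2.2 and negative for OLIG2, pMN (n = 15, from 100 and 500 nM) for OLIG2, p2 (n = 15, from 10 and 100 nM) for NKX6.1 and PAX6, and p0-1 (n = 17, from 0 and 10 nM) for PAX6 without NKX6.1. Replicates were separate differentiations of that line. Groups held 1 to 3 libraries, and the groups of p3 at 100 nM and p2 at 10 nM on day 4 held 1 each.

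Libraries held 7615114 to 13484815 reads assigned to genes (median 10441895) and 9718 to 15963 genes with a read. RNA for the sorted proteins followed the labels in part. On days 5 and 6 Nkx2-2 was at 121 to 426 normalised reads in p3 and at 0 to 98.1 in pMN, without overlap. Olig2 was at 1368 to 6214 in pMN and overlapped p3, at 0 to 1741, and p2, where it reached 1452 on day 6. On day 4 Nkx2-2 was lower, with 21.4 to 103 in p3 and 0 to 96.0 in pMN, so that these ranges overlapped. One p3 library of day 4, from 100 nM SAG and numbered replicate 3, was the only library of its group. It had the fewest genes detected of all libraries, 9718, and the most reads, 13484815. Another, from 500 nM SAG replicate 1, had the second lowest total, 7684611, and the lowest Sox2 of the day 4 libraries, 593 normalised reads. Results that rest on these libraries are given with and without them. A lower value in sorted bulk cells can mean fewer expressing cells or less RNA in each, and these cannot be told apart here.

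A stretch of the homeobox region of the 4 genes is shown because near-identical coding sequence could let reads of one gene be counted for another. Each stretch is 189 bases of exon 2. It was chosen as the window of Irx3 with the highest summed identity to the other 3 coding sequences. Its ends therefore need not be those of the homeobox, and the identities below are of a window picked for likeness. Irx3 is the reference, and capitals mark bases that differ from it in the other 3. Sequences are 5′ to 3′ on the coding strand, from GENCODE M21 transcripts, with mm10 coordinates.
Irx3, chr8:91800487-91800675 (-): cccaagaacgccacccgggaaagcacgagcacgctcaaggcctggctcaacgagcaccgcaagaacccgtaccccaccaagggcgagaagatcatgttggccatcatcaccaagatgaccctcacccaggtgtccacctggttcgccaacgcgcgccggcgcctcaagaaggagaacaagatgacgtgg
Irx5, chr8:92359636-92359824 (+): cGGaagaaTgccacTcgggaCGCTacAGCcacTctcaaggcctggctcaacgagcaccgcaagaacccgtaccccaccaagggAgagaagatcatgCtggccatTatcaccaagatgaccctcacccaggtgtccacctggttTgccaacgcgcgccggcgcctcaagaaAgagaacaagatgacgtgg
Irx1, chr13:71959983-71960171 (-): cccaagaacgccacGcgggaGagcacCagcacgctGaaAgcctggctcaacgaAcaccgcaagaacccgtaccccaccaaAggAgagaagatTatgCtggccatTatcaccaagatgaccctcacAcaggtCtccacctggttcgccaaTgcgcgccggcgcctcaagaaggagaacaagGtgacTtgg
Irx2, chr13:72630673-72630861 (+): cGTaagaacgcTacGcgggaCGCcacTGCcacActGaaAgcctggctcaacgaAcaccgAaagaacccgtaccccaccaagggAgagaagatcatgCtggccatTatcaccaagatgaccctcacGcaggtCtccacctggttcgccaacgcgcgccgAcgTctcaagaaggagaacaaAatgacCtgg
Irx5 differed from Irx3 at 17 of the 189 bases (91% identity), Irx1 at 16 (91.5%) and Irx2 at 24 (87.3%). The longest run shared by a pair of whole transcripts was 65 bases (Irx2 and Irx5), followed by 50 bases (Irx3 and Irx5). The other pairs shared at most 32 bases. How reads that match more than one place were counted is not given in the sources used here, and their part in the values below was not tested.

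Irx3 lies on chromosome 8 at 91798511 to 91801654 (mm10, minus strand), and Irx5 at 92357796 to 92361456 (plus strand), with their starts 556.1 kb apart. Irx6 follows 316.5 kb further on. Irx1 lies on chromosome 13 at 71958232 to 71963723 (minus strand), and Irx2 at 72628820 to 72634196 (plus strand), 665.1 kb away, with Irx4 631.7 kb beyond. No exon of another gene in the deposited annotation overlapped an exon of these genes.

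The genes of the chromosome 8 cluster dominated. Per kilobase of exon, the mean level over all libraries was 531.9 normalised reads for Irx3, 320.8 for Irx5, 52.66 for Irx2 and 13.43 for Irx1. Irx3 had reads in all 65 libraries, with 8.15 to 3362 normalised reads. Irx5 was at 0 in 2 libraries and reached 1774. Irx2 was at 0 in 10 libraries and reached 631, and Irx1 was at 0 in 16 and reached 144. Libraries of one cell type differed far more in Irx1 and Irx2 than in Irx3 and Irx5. On days 5 and 6 the coefficient of variation within a cell type was 112% to 152% for Irx1 and 113% to 138% for Irx2. For Irx3 it was 64.9% in p3 and 22.2% in p0-1, and for Irx5 it was 45.8% in p3 and 25.3% in p0-1. Irx4 was at 0 in 56 libraries, and its highest value was 246. Irx6 had a mean of 21.6 ± 18.8 (SD, n = 3) in NMPs, and its highest value, 61.9, was in a p0-1 library of day 6.

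**Figure D1:**
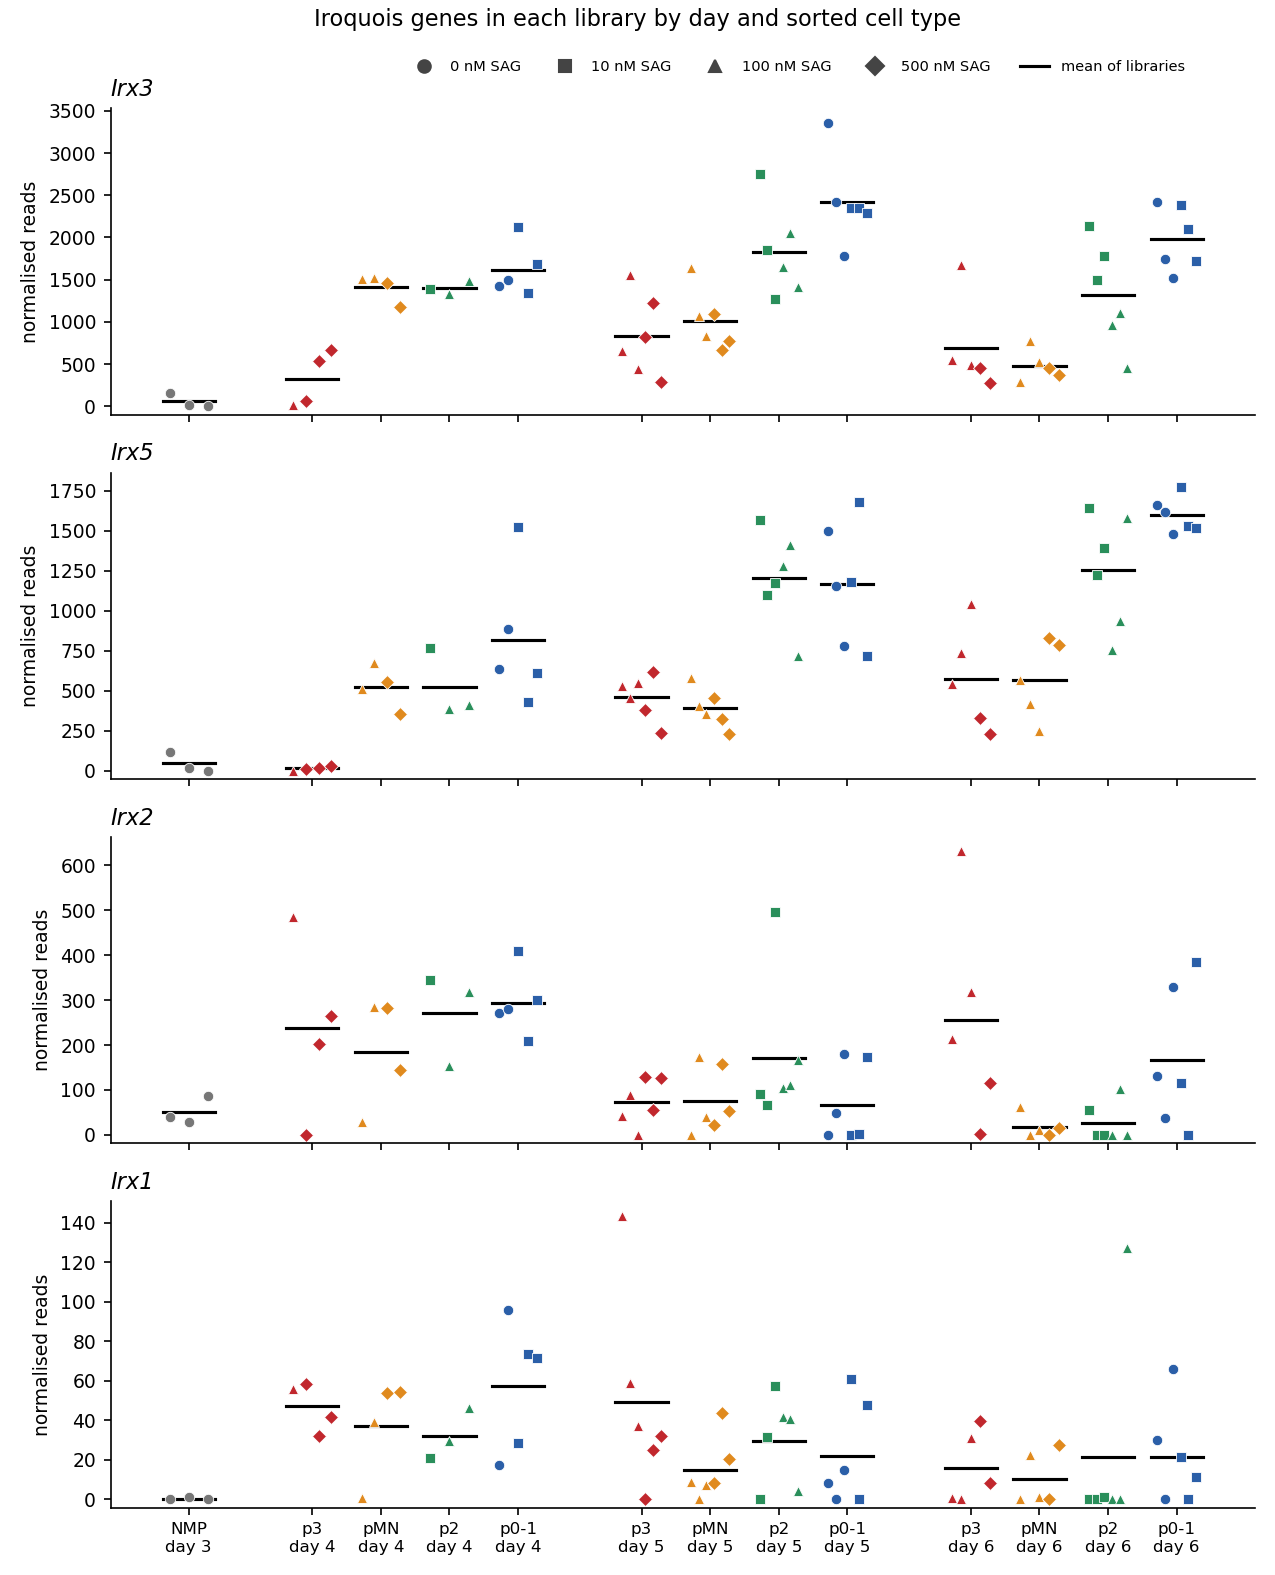
Normalised reads of Irx3, Irx5, Irx2 and Irx1 (y axes, linear, a different range for each gene) in the 65 libraries, by day and sorted cell type (x axis). Points are libraries, shapes give the SAG concentration and bars the mean of a day and cell type. The means of Irx3 and Irx5 on days 5 and 6 are higher in p0-1 and p2 than in pMN and p3, and the lowest means of all are in NMPs and in p3 on day 4, while Irx2 and Irx1 have libraries at or near 0 in all cell types of days 5 and 6.

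The first comparison asked how the Iroquois genes differ between the 4 ventral cell types once patterning is established, on days 5 and 6. Irx3 was lower in both p3 and pMN than in p0-1, and Irx5 was lower in p3 than in p0-1. Irx1 and Irx2 did not pass the test in any pair of cell types. A gene was called at an adjusted p below 0.01 and more than a 2-fold change, with limma on log2 of the value plus 1 and p-values adjusted over all 13964 genes. Changes are on that scale, which understates the change of low genes. Of the 24 pairs of a gene and a comparison, 3 were called, all lower in the more ventral cell type.

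Irx3 ran from 271 to 1676 normalised reads in p3, with a median of 551 and a mean of 766 ± 497 (SD, n = 11). In pMN it ran from 289 to 1637, with a median of 774 and a mean of 771 ± 390 (SD, n = 11). In p2 it ran from 456 to 2750, with a median of 1571 and a mean of 1578 ± 604 (SD, n = 12). In p0-1 it ran from 1516 to 3362, with a median of 2322 and a mean of 2204 ± 489 (SD, n = 12). The order of the means was therefore p0-1, p2, pMN and p3, and the last 2 were almost level. All 22 libraries of p3 and pMN lay below the median of the 24 libraries of p2 and p0-1.

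The difference in Irx3 was -1.83 ± 0.33 (log2, SE) for p3 against p0-1 (limma, adjusted p = 0.000252) and -1.71 ± 0.33 for pMN against p0-1 (adjusted p = 0.00088). Among all genes tested, 1.43% were called for p3 against p0-1 and 0.960% for pMN against p0-1. Both calls held when any 1 library was left out. Against p2 the differences of -1.25 ± 0.33 in p3 (adjusted p = 0.0197) and -1.14 ± 0.33 in pMN (adjusted p = 0.123) did not pass, with 1.27% and 0.107% of all genes called. DESeq2 called both (adjusted p = 0.00254 and 0.00379), and a pseudocount of 10 the first (0.00837). DESeq2 called 986 and 587 of all genes in these comparisons, against 178 and 15 with limma. Of the 11 pMN libraries, 10 lay below the median of p2. The other neighbours in the order were closer. The difference was -0.57 ± 0.32 for p2 against p0-1 (adjusted p = 0.684, 0.322% of genes called) and -0.11 ± 0.34 for p3 against pMN (adjusted p = 0.949, 0.695% called). The 95% interval of the last, -0.80 to 0.58, still allows a difference of either sign.

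Irx5 followed the same order, except that pMN was lowest. It ran from 232 to 1039 normalised reads in p3 (median 529, mean 513 ± 235, SD, n = 11) and from 230 to 830 in pMN (median 419, mean 472 ± 199, n = 11). In p2 it ran from 716 to 1644 (median 1250, mean 1231 ± 311, n = 12) and in p0-1 from 714 to 1774 (median 1509, mean 1382 ± 349, n = 12). The 22 libraries of p3 and pMN again lay below the median of p2 and p0-1. The difference of p3 from p0-1 was -1.57 ± 0.38 (limma, adjusted p = 0.00758) and was called. It was no longer called when all genes with a mean above 0 were tested (adjusted p = 0.011), nor in 19 of the 65 fits that left out 1 library, with adjusted p up to 0.0305. The libraries left out in those fits were all of p3 or p0-1.

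The difference of pMN from p0-1 in Irx5 was of the same size, -1.54 ± 0.38, and missed the threshold (limma, adjusted p = 0.0141). It passed in 6 of 9 alternative fits, among them the quasi-likelihood test of edgeR and DESeq2 on the recovered reads. Of all genes, edgeR called 99 and DESeq2 749 in this comparison, against 134 with limma. Against p2 the differences were -1.41 ± 0.38 in p3 (adjusted p = 0.02) and -1.37 ± 0.38 in pMN (adjusted p = 0.0882). The first passed in 4 of 9 alternative fits, with edgeR (0.00643) and DESeq2 (1.29e-05) among them, and the second in 3 of 9, with DESeq2 (4.15e-05) but not edgeR. In these 2 comparisons DESeq2 called 986 and 587 of all genes, and edgeR 122 and 5. In p2 against p0-1 the difference was -0.16 ± 0.37 (95% interval -0.90 to 0.58, adjusted p = 0.957), and in p3 against pMN it was -0.04 ± 0.39 (-0.82 to 0.74, adjusted p = 0.985).

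Within single days the separation was clearer for Irx5 than for Irx3. The share of all genes that separate in this way was not counted. On both day 5 and day 6, no p3 or pMN library reached the lowest p0-1 library for Irx5. For Irx3 the same held for pMN on both days and for p3 on day 5. On day 6 a single p3 library, from 100 nM SAG replicate 2, reached 1676 normalised reads, within the range of 1516 to 2417 of p0-1, whereas the other 4 were at 551, 494, 453 and 271. This library and the p3 library of day 5 with the highest Irx3 (1551, also 100 nM replicate 2) had 10338 and 10571 genes detected, among the 4 lowest counts of all libraries. Their part in the range of Irx3 in p3 was not tested. Leaving out any 1 library gave differences of p3 from p0-1 between -1.97 and -1.68.

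**Figure D2:**
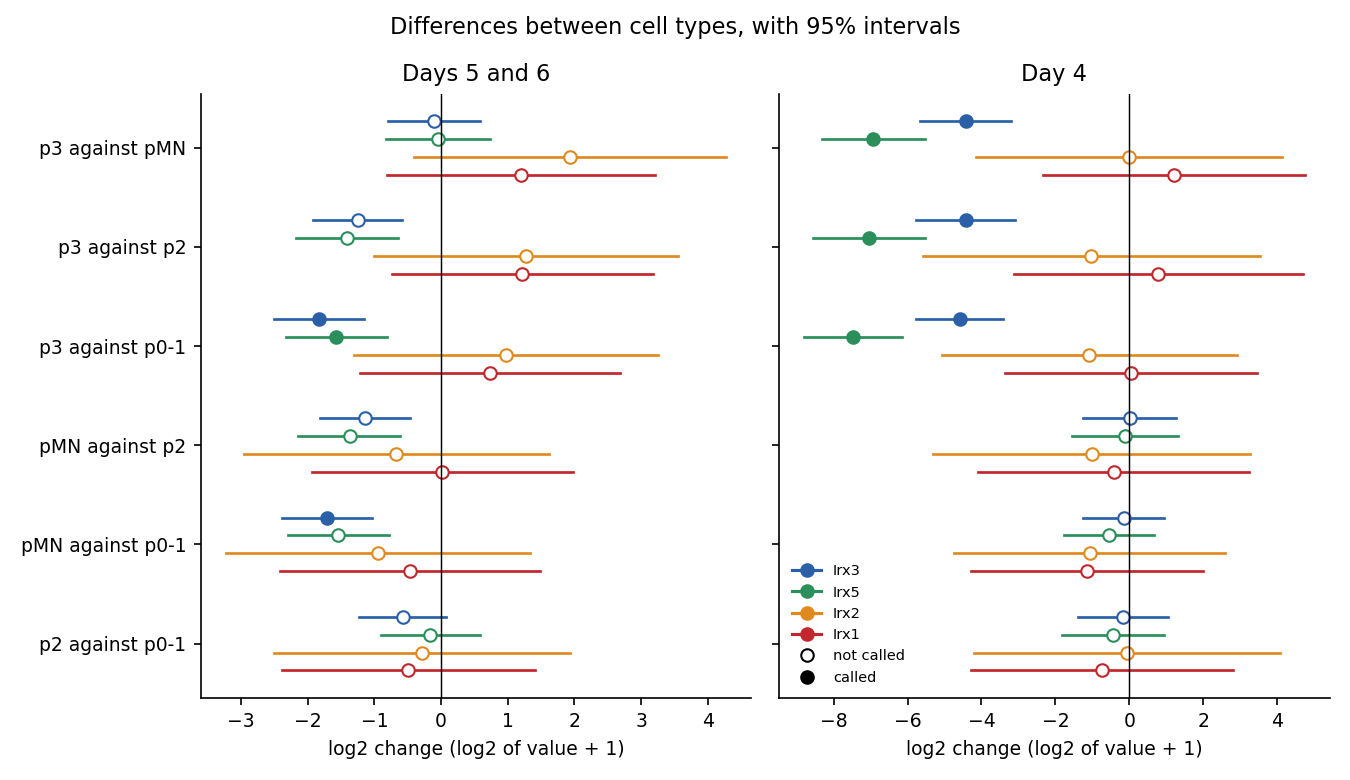
Log2 differences (x axis, log2 of normalised reads plus 1) of the 4 genes for each pair of cell types (y axis), on days 5 and 6 (left) and on day 4 (right). Bars are 95% intervals of the limma fit, and filled points were called. On days 5 and 6 the called points are Irx3 in p3 and pMN and Irx5 in p3, each against p0-1, and on day 4 they are Irx3 and Irx5 in p3 against each other cell type, between -7.47 and -4.42.

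Irx1 and Irx2 did not separate the cell types. Irx2 had its highest mean in p3, 157 ± 183 normalised reads (SD, n = 11), and its lowest in pMN, 48.7 ± 61.6 (n = 11). In p2 it was at 99.2 ± 137 (n = 12) and in p0-1 at 117 ± 131 (n = 12). The SDs are as large as the means, and the ranges overlapped throughout. Irx1 had means of 34.2 ± 41.1 in p3, 12.7 ± 14.2 in pMN, 25.3 ± 38.3 in p2 and 21.7 ± 24.2 in p0-1, and it was at 0 in at least 1 library of each. Differences between cell types ran from -0.95 to 1.93 for Irx2 (lowest adjusted p = 0.56) and from -0.49 to 1.22 for Irx1 (lowest adjusted p = 0.564). Their standard errors, 0.94 to 1.17, stand against 0.32 to 0.34 for Irx3, so that differences of the size seen for Irx3 were within the 95% intervals of several pairs.

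On day 4, the first day after SAG was added, p3 stood apart from the other cell types. Irx5 was at or near 0 in p3 and abundant elsewhere, and Irx3 was lower in p3 as well. The 4 p3 libraries had 0, 10.4, 14.9 and 29.1 normalised reads of Irx5 (mean 13.6 ± 12.1, SD). In pMN the 4 libraries had 509, 674, 557 and 351 (mean 523). In p2 the 3 libraries had 387, 408 and 767 (mean 521), and in p0-1 the 5 libraries had 636, 887, 1523, 430 and 613 (mean 818). No library of the other 3 cell types came near the highest p3 value.

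The p3 libraries had 13.9, 64.99, 533 and 665 normalised reads of Irx3 (mean 319 ± 328, SD, n = 4). The low pair are the 2 libraries with unusual totals, 100 nM replicate 3 and 500 nM replicate 1. The other 12 libraries of day 4 ran from 1178 to 2129, with a median of 1471, so that the groups did not overlap either. The means of pMN, p2 and p0-1 were 1417, 1402 and 1613.

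The difference of p3 in Irx5 was -6.93 ± 0.69 against pMN (limma, adjusted p = 9.41e-11), -7.04 ± 0.76 against p2 (1.22e-09) and -7.47 ± 0.66 against p0-1 (3.48e-12). For Irx3 the differences were -4.43 ± 0.61 (2.87e-07), -4.42 ± 0.67 (3.2e-06) and -4.59 ± 0.58 (4.8e-08). Many genes were called in these comparisons, 4.70%, 4.30% and 6.02% of all tested. Of the 840 genes called between p3 and p0-1, 805 were lower in p3. The counts rested on the 100 nM library. Without it, 6, 5 and 14 genes were called, which is 0.043%, 0.0358% and 0.1% of those tested.

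Irx5 was still called without that library, at -4.86 against pMN (adjusted p = 3.63e-05), -4.97 against p2 (0.000156) and -5.40 against p0-1 (5.27e-07). Irx3 was not, at -2.30 (adjusted p = 0.141), -2.29 (0.449) and -2.45 (0.0515). Without the 500 nM replicate 1 library as well, Irx5 was at -4.54 (adjusted p = 0.00201), -4.66 (0.00418) and -5.09 (4.82e-05), and Irx3 at -1.24 (0.885), -1.23 (1) and -1.39 (1). The lower Irx5 in p3 was thus called with and without these libraries, and the call for Irx3 depended on 1 of them. With only the compared libraries in the fit, the calls against pMN and p2 were lost for Irx5 (adjusted p = 0.0135 and 0.0284) and for Irx3 (0.0509 and 0.101), and quantile normalisation ended the same calls for Irx3 (0.0175 and 0.0411). The 2 remaining p3 libraries had 14.9 and 29.1 normalised reads of Irx5, with 12891 and 13004 genes detected.

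**Figure D3:**
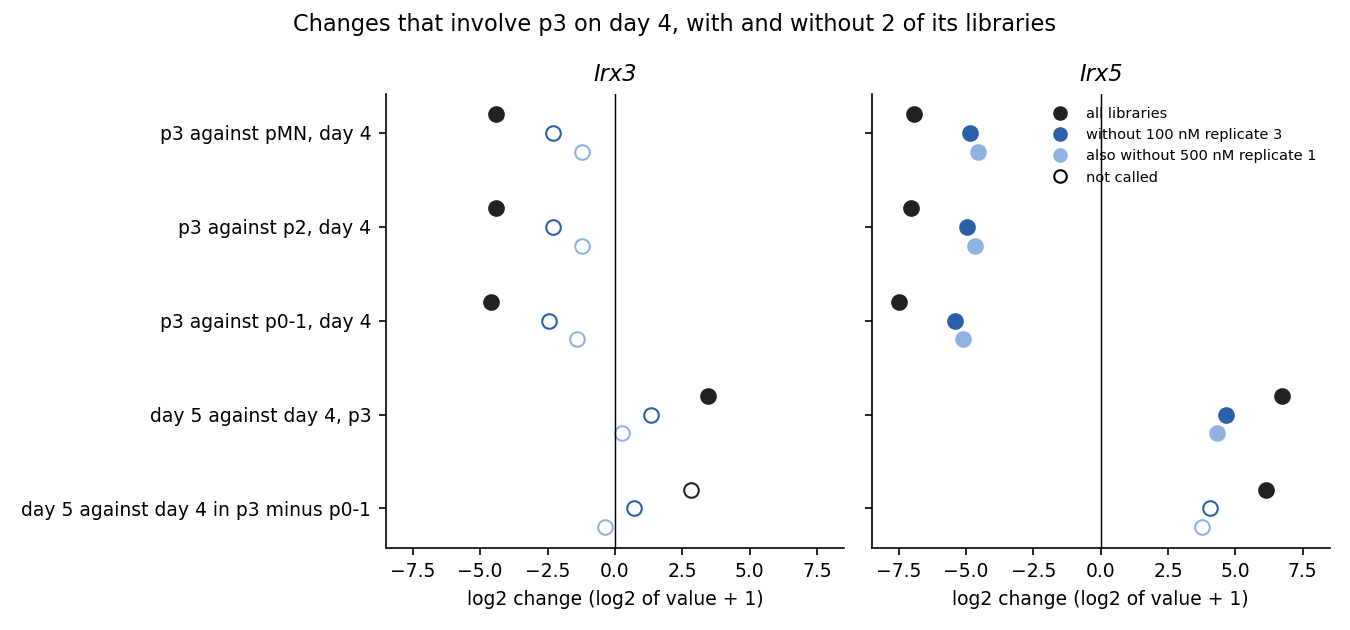
Log2 change (x axis, log2 of normalised reads plus 1) of Irx3 (left) and Irx5 (right) in the comparisons that involve p3 on day 4 (y axis), with all libraries and with 1 or 2 p3 libraries left out. Filled points were called. The 3 differences of Irx5 on day 4 are filled in all 3 settings shown, between -7.47 and -4.54, whereas those of Irx3 are filled only with all libraries.

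Among pMN, p2 and p0-1 no Iroquois gene was called on day 4. Irx3 differed by -0.16 to 0.01 and Irx5 by -0.55 to -0.12 (lowest adjusted p = 1), with 0.00716% of genes called for pMN against p2, 0.100% for pMN against p0-1 and 0.0286% for p2 against p0-1. On days 5 and 6 Irx3 in pMN was lower than in p0-1, as given above. Irx1 and Irx2 in p3 overlapped the other cell types on day 4 as well, with 32.2 to 58.5 normalised reads of Irx1 in p3 and 0 to 486 of Irx2. The library at 0 for Irx2 was 500 nM replicate 1, and the one at 486 was 100 nM replicate 3.

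The changes from day to day show when each gene came on. In NMPs on day 3, Irx3 was at 160, 16.9 and 8.15 normalised reads, Irx5 at 118, 14.6 and 0, and Irx2 at 39.7, 28.1 and 87.0. The library of replicate 1 was the highest for both Irx3 and Irx5. Irx1 had 1 read in one NMP library and none in the others.

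From day 3 to day 4, Irx3 rose by 5.57 ± 0.61 in pMN (limma, adjusted p = 1.26e-09), 5.56 ± 0.67 in p2 (2.53e-08) and 5.72 ± 0.58 in p0-1 (1.87e-10). Irx5 rose by 5.37 ± 0.69 (8.61e-08), 5.49 ± 0.76 (6.66e-07) and 5.92 ± 0.66 (2.31e-09). The 3 comparisons share the NMP libraries. Of all genes, 2.53%, 1.53% and 2.16% were called in pMN, p2 and p0-1, and 8.43% in p3. All 6 of these calls were lost when only the compared libraries entered the fit, with adjusted p from 0.0123 to 0.186, although no NMP library reached the lowest value of the other cell types on day 4 for either gene.

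In p3 limma called neither gene from day 3 to day 4, and other settings differed. The change in Irx3 was 1.14 ± 0.65 (adjusted p = 0.249). It was called at 3.27 without the 100 nM library (adjusted p = 0.000593), at 4.33 without both libraries (4.56e-06), at 4.80 under quantile normalisation (1.4e-05) and at 2.35 without NMP replicate 1 (0.00672). The change in Irx5 was -1.55 ± 0.73 (adjusted p = 0.153). It was called lower with edgeR (-4.90, adjusted p = 0.000577), with DESeq2 (-4.85, 0.000216) and without NMP replicate 3 (-3.36, 2.15e-05). It had the opposite sign under quantile normalisation (1.04), without NMP replicate 1 (0.09), without the 100 nM library (0.52) and without both p3 libraries (0.83). In this comparison edgeR called 896 of all genes and DESeq2 3410, against 1177 with limma. Irx1 was higher than in NMPs on day 4 in every cell type, by 5.28 ± 1.88 in p3 (adjusted p = 0.0496), 4.07 ± 1.76 in pMN (0.222), 4.49 ± 1.94 in p2 (0.378) and 5.22 ± 1.70 in p0-1 (0.0868), and none was called. The difference in p3 was called under 3 of 9 alternatives. These fitted changes depend on the pseudocount, since the NMP libraries held 1 read in all.

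From day 4 to day 5, Irx3 and Irx5 rose in p3. Irx3 in p3 on day 5 ran from 293 to 1551 normalised reads (mean 830, n = 6), and Irx5 from 237 to 615 (mean 461). The change was 3.45 ± 0.56 for Irx3 (limma, adjusted p = 7.72e-06) and 6.72 ± 0.64 for Irx5 (1.57e-11), where 6.41% of all genes were called. Every p3 library of day 5 had more Irx5 than every p3 library of day 4. Without the 100 nM library of day 4 the change was 4.65 for Irx5 (adjusted p = 7.82e-06) and 1.32 for Irx3 (0.377), and without both libraries it was 4.33 (0.000589) and 0.26 (0.969). Irx5 in p3 thus rose from day 4 to day 5 with and without these libraries, whereas the call for Irx3 depended on the 100 nM library. The call for Irx3 was also lost under quantile normalisation (adjusted p = 0.14) and with only the compared libraries in the fit (0.0485).

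In the other cell types the 4 genes had no called change from day 4 to day 5, when 0.695% of genes were called in pMN, 0.193% in p2 and 0.337% in p0-1. From day 5 to day 6 no cell type had a called change in them, with 0.0215% of genes called in p3, 0.0286% in pMN, 0.150% in p2 and 0.0645% in p0-1. Irx3 in pMN had a mean of 1417 on day 4, 1013 on day 5 and 482 on day 6. The change from day 5 to day 6 was -1.11 ± 0.49 (adjusted p = 0.639). Irx5 in pMN had means of 523, 391 and 569 on these days.

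Irx2 had its highest mean on day 4, 249 ± 126 normalised reads (SD, n = 16), against 96.9 ± 105 on day 5 (n = 24) and 115 ± 165 on day 6 (n = 22). In p0-1 all 6 libraries of day 5 (0 to 179) lay below the 5 of day 4 (209 to 409), and the change of -4.45 ± 1.65 was not called (adjusted p = 0.242). In p2 on day 6, 4 of 6 libraries were at 0 and the others at 55.3 and 102. The change there from day 5 was -4.99 ± 1.56 (adjusted p = 0.142). Irx1 had no library at 0 on day 4 and 9 of 22 at 0 on day 6.

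Whether a change over time differed from that of p0-1 was tested with interaction terms, which all share the p0-1 libraries. One of 24 passed. Irx5 rose from day 4 to day 5 by 6.14 ± 0.84 more in p3 than in p0-1 (limma, adjusted p = 6.91e-07), where 3.19% of all genes were called. For Irx3 this term was 2.84 ± 0.74 (adjusted p = 0.0115). Without the 100 nM library of day 4 the term for Irx5 was 4.07 (adjusted p = 0.0903), and no gene at all was called. Without both libraries the terms were 3.75 (adjusted p = 0.239) and -0.35 (1), so that the sign for Irx3 turned. Of the other terms from day 4 to day 5, 0.00716% of genes were called in pMN and 0% in p2, where limma gave 249 genes at an unadjusted p below 0.05. From day 5 to day 6, 0% were called in p3, pMN and p2, with 765, 592 and 888 genes at an unadjusted p below 0.05. For these 4 terms with 0% called, edgeR called 0 genes each and DESeq2 270, 538, 487 and 532.

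No Iroquois gene was called between SAG concentrations within a cell type. Of the 16 pairs of a gene and a cell type limma, edgeR and DESeq2 each called 0, and limma gave 0 at an unadjusted p below 0.05, with the farthest change at -1.53 (Irx2 in p0-1) and a lowest adjusted p of 0.536. The share of all genes called was 0.0286% in p3, 0% in pMN (657 genes at an unadjusted p below 0.05, with 0 called by edgeR and 442 by DESeq2), 0.0358% in p2 and 0.0143% in p0-1. In p2, Irx3 was at 2134, 1496 and 1782 normalised reads with 10 nM SAG on day 6 and at 965, 1109 and 456 with 100 nM. These ranges did not overlap, and the share of all genes that separate in this way was not counted. On day 5 they did, with 2750, 1854 and 1273 against 1646, 2058 and 1412. Over both days the difference was -0.66 ± 0.46 (95% interval -1.59 to 0.26, adjusted p = 0.758). In the same 3 p2 libraries of day 6 from 100 nM, Olig2 was at 1385, 771 and 1452, against 162, 87.1 and 118 with 10 nM. The part of cells with Olig2 RNA in the lower Irx3 was not tested.

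Cell types from the same SAG concentration were compared to hold the agonist constant. Limma and edgeR called 0 of the 20 pairs and DESeq2 called 1. That 1 was Irx5 in pMN against p2 at 100 nM, where DESeq2 called 554 of all genes. Limma gave 1 pair at an unadjusted p below 0.05, with changes from -1.37 to 2.46 and a lowest adjusted p of 0.429. Of all genes, 0.122% were called for p3 against pMN at 500 nM, 0.465% for p3 against pMN at 100 nM, 0.752% for p3 against p2 at 100 nM, 0.0143% for pMN against p2 at 100 nM and 0.0215% for p2 against p0-1 at 10 nM. Irx5 in pMN against p2 at 100 nM differed by -1.37 ± 0.52 (95% interval -2.41 to -0.32, adjusted p = 0.552). Irx3 in the same comparison differed by -0.63 ± 0.46 (-1.55 to 0.30, adjusted p = 0.838). In p3 against p2 at 100 nM, Irx3 differed by -0.59 ± 0.46 (limma, adjusted p = 0.521) and Irx5 by -0.79 ± 0.52 (0.429). Over all concentrations the differences of Irx3 and Irx5 from p2 were -1.25 and -1.41 in p3, and -1.14 and -1.37 in pMN. At the same SAG concentration each cell type was represented by 6 libraries or fewer. Neither p3 nor pMN shares a concentration with p0-1, so cell type and SAG concentration cannot be told apart in these pairs.

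Irx3 and Irx5 varied together. Across the 25 group means of log2 values their Pearson correlation was 0.92, over the 65 libraries it was 0.86, and after the group means were removed it was 0.63. Irx1 and Irx2, the pair of the other cluster, had correlations of 0.53, 0.24 and 0.03 in the same order. Pairs across clusters ranged from -0.23 to 0.03 over group means. Groups of a day share the day of collection but not all the same SAG concentration. Both genes of a pair share the size factor of a library, and Irx1 and Irx2 were near 0 in many libraries. The NMP libraries were low and spread widely in both Irx3 (160, 16.9 and 8.15 normalised reads) and Irx5 (118, 14.6 and 0). Their part in the correlations of Irx3 and Irx5, also after the group means were removed, was not tested.

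The balance of Irx3 and Irx5 per length was followed by day, as a description without a test. In p0-1 the median ratio of Irx5 to Irx3, both per kilobase, was 0.439 on day 4, 0.454 on day 5 and 0.798 on day 6. In pMN it was 0.354, 0.39 and 1.81, and in p2 it was 0.285, 0.629 and 0.787. In p3 it was 0.645 on day 5 and 0.842 on day 6. On day 4 it was 0.0353 there, with all 4 libraries between 0 and 0.157, below the 12 libraries of the other cell types (0.271 to 0.704). In each cell type the ranges of days 5 and 6 overlapped. On day 6 the pMN libraries spread from 0.465 to 2.11, and 1 p2 library, 100 nM replicate 3, was at 3.4.

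A ratio within a library does not depend on its size factor, so it was used to ask whether one gene differed by more than another between cell types. On days 5 and 6 the log2 ratio of Irx3 to Irx5 differed from that of p0-1 by -0.24 in p3 (two-sided permutation test, p = 0.391), -0.04 in pMN (p = 0.91) and -0.41 in p2 (p = 0.107). Their sizes are below the SD of the ratio within a cell type, 0.51 to 1.08. Of 18 ratios none passed at an adjusted p below 0.05, and the lowest p was 0.0408 (Irx1 to Irx3 in p3 against p0-1, difference 2.46, adjusted p = 0.259). With a pseudocount of 10, that ratio (2.12) and Irx1 to Irx5 (1.88) passed, both at an adjusted p of 0.0422.

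**Figure D4:**
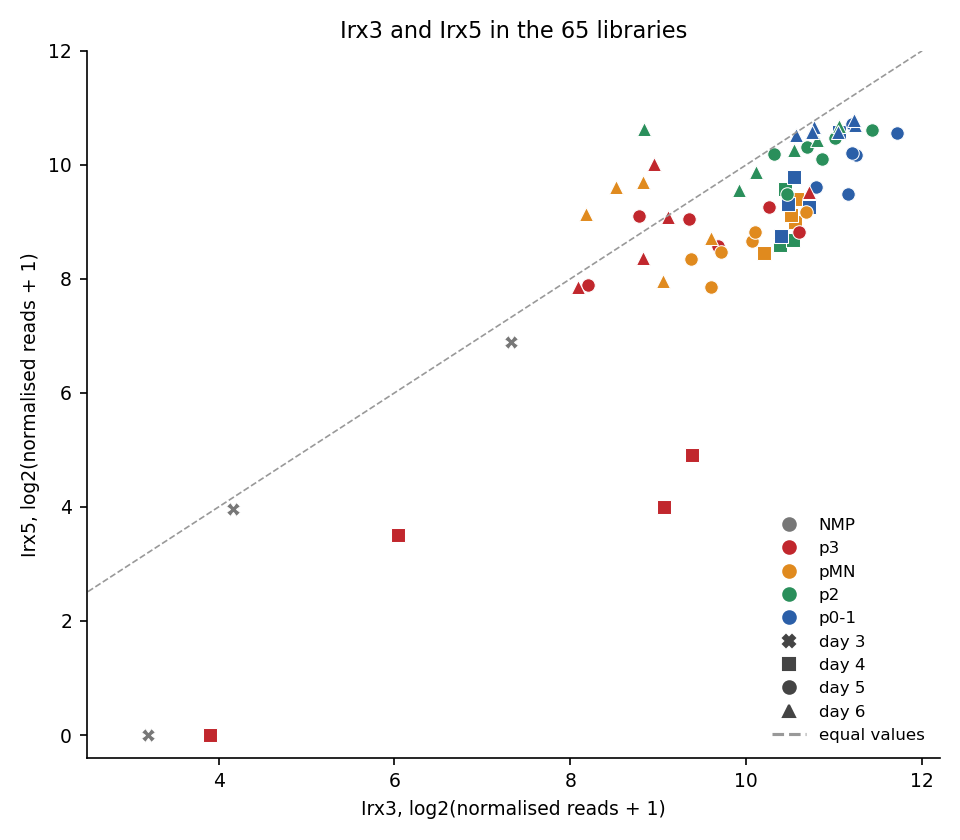
Log2 of normalised reads plus 1 of Irx3 (x axis) against Irx5 (y axis) in the 65 libraries. Colours give the cell type, shapes the day, and the dashed line equal values. The 4 p3 libraries of day 4 lie far below the line, at 0 to 29.1 normalised reads of Irx5, and the other libraries lie on both sides of it.

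The genes most like each member were taken by Pearson correlation with it across the 25 group means. For Irx3 these were Foxd2os (0.899), Gas1 (0.891), which encodes a Shh co-receptor, and Nkain1 (0.841). For Irx5 they were Samd14 (0.913), the Hox gene Hoxa2 (0.898) and the long non-coding RNA Crnde (0.888). For Irx1 they were ccdc198 (0.825), Ranbp1 (0.773) and the chaperonin subunit Cct5 (0.770), and for Irx2 Mia2 (0.792), Poglut3 (0.760) and Rnps1 (0.752), a protein of the exon junction complex. Gas1 differed from p0-1 by -1.87 ± 0.26 in p3 (adjusted p = 1.06e-06) and by -1.45 ± 0.26 in pMN (0.000224) on days 5 and 6, both called. The others like Irx3 or Irx5 were not called in p3 against p0-1 on those days. Foxd2os was at -3.48 (adjusted p = 0.0238), Nkain1 at -0.66, Samd14 at -0.68 and Hoxa2 at -0.54. On day 4, with all libraries, Samd14 (-5.09), Hoxa2 (-5.79), Crnde (-5.62) and Gas1 (-3.59) were called lower in p3 than in p0-1. Foxd2os (-4.88) and Nkain1 (-1.76) were not. From day 4 to day 5 in p3, Samd14 (5.19), Hoxa2 (6.49), Crnde (5.32) and Gas1 (2.15) were called higher. Samd14, Hoxa2 and Crnde were at 0 in the p3 library of day 4 with the fewest genes detected. These genes were chosen on the same group means, so their differences are no separate evidence.

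Crnde is also the nearest neighbour of Irx5. It starts 1.676 kb from the start of Irx5 and is transcribed away from it on the minus strand. In p3 on day 4 it was at 0, 93.6, 78.4 and 3.89 normalised reads, below the 118 to 901 of the other 12 libraries. On days 5 and 6 it differed from p0-1 by -2.35 ± 0.59 in pMN (adjusted p = 0.0165) and -1.14 ± 0.59 in p3 (adjusted p = 0.335), neither of which was called. Its medians on day 6 were 273 in p3, 170 in pMN, 545 in p2 and 409 in p0-1. Fto, which starts within 500 kb of Irx3, differed by 0.67 ± 0.23 in p3 against p0-1 (adjusted p = 0.107). Also within 500 kb were Rpgrip1l, Irx6, Mmp2 and Lpcat2 on chromosome 8 and Gm20554 and D730050B12Rik on chromosome 13, and of these Irx6 and D730050B12Rik were not tested.

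Other TALE homeobox genes did not follow Irx3 and Irx5. Of 12 (Meis, Pbx, Pknox and Tgif genes and Mkx), none was called for p3 or pMN against p0-1 on days 5 and 6, with medians of 0.20 and -0.17 beside -0.07 and 0.01 over all genes. For p3 against p0-1, Pbx3 (-1.05), Pknox2 (1.43) and Tgif2 (0.68) had an unadjusted p below 0.05 and are named for that reason, after their values were seen. On the recovered reads edgeR called 0 of the 12 in either comparison and DESeq2 1 in each. From day 3 to day 4, Meis1, Meis2 and Meis3 rose in pMN and in p0-1, and Meis1 and Meis2 in p2.

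Factors known to be repressed by Shh in the neural tube were lower in p3. Of 5 tested, 4 were called lower for p3 against p0-1 (median -4.07), namely Dbx1 (-11.03), Pax6 (-4.64), Pax3 (-4.07) and Gli3 (-2.43), the last a transcriptional effector of the pathway. Dbx2 was at -3.37 (adjusted p = 0.0927) and Pax7 was not tested. All 8 Shh-induced factors tested were called higher (median 7.81), with Nkx2-9 at 10.10, Foxa2 at 8.90, Olig2 at 8.25 and Nkx2-2 at 7.90. In pMN against p0-1, 3 of 5 repressed factors were called lower and 6 of 8 induced factors were called higher. The others had the same signs without a call, with Dbx2 at -3.15, Pax6 at -1.25, Foxa2 at 3.35 and Nkx2-2 at 2.23. Of all genes, 1.43% were called for p3 and 0.960% for pMN against p0-1. Olig2 was higher in pMN than in p2 by 4.52 (adjusted p = 0.00203). Pax6, Nkx6-1, Olig2 and Nkx2-2 encode proteins used to sort the cells, so their differences are not independent of the sort. Cells sorted as p3 were negative for OLIG2 protein, although their Olig2 RNA was higher than in p0-1. In p3 the differences of Irx3 and Irx5 had the sign of the repressed factors and were smaller than the called ones, and in pMN Irx3 (-1.71) was close to Gli3 (-1.61).

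Markers of other cell types moved with some of these comparisons. All 5 floor plate markers tested, of 6, were called higher in p3 than in p0-1 on days 5 and 6. Their summed level was 3190 to 21792 normalised reads in p3, 1139 to 3132 in pMN, 1073 to 3733 in p2 and 475 to 2889 in p0-1. Ferd3l was at 0 in all pMN, p2 and p0-1 libraries. On day 4 the sum was 1946 to 5416 in p3 and 585 to 3449 in the other cell types, with Ferd3l at 0 in p3. The part of floor plate cells in the lower Irx3 and Irx5 of p3 was not tested. The p3 gate was NKX2.2+ and OLIG2-.

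Of 6 neuron markers only Elavl4 was called higher, in both p3 and pMN against p0-1. The summed level of the list was 1201 to 5314 in p3, 1037 to 6105 in pMN, 854 to 5812 in p2 and 231 to 2823 in p0-1. Its part in the differences was not tested. No marker of NMPs, paraxial mesoderm or pluripotent cells was called in these comparisons.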

How the data were processed

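RNA was measured in 65 libraries of sorted cells in 25 groups. Per the labels and the study's methods, the authors aligned reads with STAR to mm10 with ERCC spike-ins, counted them per gene with featureCounts, left duplicates out and removed failing libraries. The deposited values are these counts divided by 1 size factor per library, a normalised signal without length correction. Whole reads were recovered by dividing by the smallest value above 0 of each library (0.717 to 1.36). This gave whole numbers for 100% of 834400 values, within 0.001.

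Genes with a mean of at least 10 were tested with limma 3.58.1 (R 4.3.3, trend) on log2(value + 1), with 1 mean for each of the 25 groups (residual df 40, prior df 7.4), and a cell type was the average of its group means. P-values were adjusted by Benjamini-Hochberg over 13964 genes in each of 39 comparisons. Calls needed an adjusted p below 0.01, with more than a 2-fold change. The study states these thresholds for accessibility. Ratios within a library used 100000 permutations. Each fit was tested on simulated data first. Alternatives were edgeR 4.0.16 and DESeq2 1.42.0 on the recovered reads, another pseudocount (10), other filters (100 or none), quantile and total scaling, the compared libraries alone, a replicate block, and each library left out.

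Genes were named by rule, namely the 4 members, Irx4 and Irx6, the 3 genes most correlated with each member over group means, genes that start within 500 kb, and up to 4 called genes of each list for p3 against p0-1, with Olig2 for pMN against p2. The members and lists were chosen with earlier results of these data known. Deviations of same-numbered libraries were weakly correlated, from -0.028 to 0.153 (median 0.057) in 36 pairs of groups, of which 6 were over 0.1. Libraries with different numbers were not compared in this way. The numbers were not used as pairs, except in the replicate block. No 2 libraries held identical values. For statements that ranges of libraries did or did not overlap, the share of all genes that do so was not counted. Some genes of the lists are not reported here by name.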

Additional observations from a re-analysis of the deposited data

Results flagged for a closer look

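One result is listed because the change over time differed between cell types by a test of the difference itself. Irx5 rose from day 4 to day 5 by 6.14 ± 0.84 (log2, SE) more in p3 than in p0-1 (limma, adjusted p = 6.91e-07). Every p3 library of day 5 (237 to 615 normalised reads, n = 6) was above every p3 library of day 4 (0 to 29.1, n = 4). In p0-1 the libraries of day 4 (430 to 1523, n = 5) and day 5 (714 to 1677, n = 6) overlapped. Without the p3 library from 100 nM SAG replicate 3 the term was 4.07 (adjusted p = 0.0903), and without 500 nM replicate 1 as well it was 3.75 (adjusted p = 0.239). No group held 4 or more libraries, so single libraries were not screened against the rest of their group.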

How the results depend on the processing

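The calls of Irx3 in p3 and pMN against p0-1 on days 5 and 6 held under all 9 alternatives and with each of the 65 libraries left out. Between cell types on days 5 and 6, 3 pairs of a gene and a comparison were called, against 7 with a pseudocount of 10, 6 with only the compared libraries in the fit, 5 with edgeR, 8 with DESeq2, and 2 to 6 with each library left out. DESeq2 called more of all genes in each of these comparisons, 587 to 986 against 15 to 199 with limma. On day 4, 6 were called, against 2 with the compared libraries only and 3 without both p3 libraries, an alternative chosen after seeing the data, and 3 to 6 with each library left out. Between days, 8 were called, against 2 with the compared libraries only, 10 with DESeq2, and 8 to 9 with each library left out. At the same SAG concentration DESeq2 called 1 of 20, against 0. For a time change unlike that of p0-1, 1 was called, against 2 with a minimum mean of 100, 2 with DESeq2, 0 without both p3 libraries, and 0 to 2 with each library left out. Of the ratios, 2 passed with a pseudocount of 10, against 0. Leaving out each library in turn gave 0 between SAG concentrations, at the same SAG concentration and for the ratios. The cause of these changes was not tested.

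Some signs turned. Irx3 in p3 against pMN on days 5 and 6 was 0.01 with DESeq2 and -0.25 to 0.03 with each library left out, and Irx5 was -0.12 to 0.05. Irx5 in p3 from day 3 to day 4 was 1.04 under quantile normalisation, 0.83 without both p3 libraries, -4.90 with edgeR, -4.85 with DESeq2 and -3.36 to 0.52 with each library left out. The time change of Irx3 in p3 against p0-1 was 2.84, and -0.35 without both. The ratio of Irx3 to Irx5 in pMN against p0-1 turned in 4 of the fits that left out 1 library, to 0.05, 0.12, 0.11 and 0.14, with a range of -0.15 to 0.14. Of the 435 values of named genes under alternatives, 385 kept their sign and their side of the threshold, as did 3006 of 3063 with a library left out. The replicate block gave 4 calls on days 5 and 6, adding Irx5 in pMN against p0-1 (adjusted p = 0.00906), and changed no other call. Scaling to total reads moved the median of all genes by up to 0.114 (log2), and quantile normalisation by up to 0.777. At this depth Irx1 was at 3 reads or fewer in 21 libraries and Irx2 in 14, which limits both.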
